A study of Mus musculus with 23 samples.

Results

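The genes of the cytosolic ribosomal proteins were followed through every RNA-Seq library of the series. They were taken by symbol: Rpl or Rps, a number and at most an a or x, together with Rplp0, Rplp1, Rplp2 and Rpsa. This gave 76 genes, 46 of the large subunit and 30 of the small subunit, of 21878 genes listed for sorted neutrophils and 55335 listed for whole lung. All 76 had an FPKM (fragments of a gene, scaled by its model length and by the reads of the library) above 0 in all 23 libraries. The pattern misses 12 ribosomal protein genes and relatives with other symbols, such as Fau and Rps3a1, which are given as a separate list.

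The study asked how neutrophils held in lung vessels differ from those of peripheral blood (PB) and bone marrow (BM), and what the mechanically gated ion channel Piezo1 contributes. Neutrophils were sorted as CD45+CD11b+Ly6G+ cells from lung, PB and BM of WT C57BL/6J mice, with 3 libraries per tissue. In a second experiment they were sorted from lung and PB of WT mice and of Piezo1-cKO mice, with 2 libraries per group. The Piezo1-cKO mice carry Piezo1 fl/fl and Vav1-iCre, which acts in all blood cells and not in neutrophils alone. In a further experiment whole lungs of mice injected with an anti-Ly6G antibody were compared with those of isotype-treated controls, with 3 libraries each. The labels do not give age or sex, and no treatment was shared by all groups. The study counts the replicates of the tissue comparison as mice. It does not say whether lung, PB and BM were taken from the same mice, and the main tests treated the libraries as unpaired. For the other experiments the labels do not say whether replicates are separate mice, and p values there measure the spread between these libraries only.

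A ribosome has a large subunit, where peptide bonds form, and a small subunit, where the mRNA is decoded. Each subunit is a scaffold of rRNA covered by proteins, nearly all present in 1 copy, so cells tend to make these proteins in matched amounts. Their mRNAs are among the most abundant of growing cells, and many start with a run of pyrimidines at the 5′ end, through which mTOR and LARP1 tune their translation and stability. Maturing neutrophils stop dividing, condense their nuclei and pare down protein synthesis, and circulating neutrophils hold little RNA. Some ribosomal proteins act outside the ribosome as well: Rpl5 and Rpl11 bind Mdm2 when assembly fails, Rps6 is the phosphorylation target of S6 kinase, and Rpsa also serves as a laminin receptor.

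The tissue comparison held 16502142 to 19330763 reads a library, as recovered from the FPKM, and the Piezo1 experiment 9621002 to 15034628. The depth of the whole-lung libraries is unknown. The 3rd PB library stood apart: chi-square per degree of freedom against the other PB libraries was 24.6 and 41.0, where other replicate pairs of sorted neutrophils gave 1.90 to 4.77. Its median ratio to the others' mean was 0.981 over 7257 genes with an FPKM of 1 or more in the 3 PB libraries. All 76 genes were higher in it than the mean of the other PB libraries, with a median ratio of 1.22. Counts, medians and shares that use it, and the genes named from these comparisons whose test it decides, are given with and without it. Ly6g, the surface protein used for sorting and depletion, had an FPKM of 760 to 781 in BM, 92.4 to 116 in PB and 53.0 to 55.7 in lung, and in whole lung 0.068 to 0.577 in controls and 0 to 0.118 after anti-Ly6G. Piezo1 was read 3 to 10 times per library of the Piezo1 experiment, too few to check its deletion.

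The sequence at the start of these genes was examined for the pyrimidine run that the background describes. RefSeq start-site windows (GRCm38.p6) were matched for 56 of the 76 genes. A run of C followed by at least 7 C or T on the transcribed strand, beginning within 30 bases of the annotated start, was found in 31 of these 56 genes (55.4%), and in 20.6% of 27025 genes with a window. The letters CGGAAG, read on either strand, stood in the 300-base window of 39 of the 56 genes (69.6%) and in 18.8% of all genes. A CGGAAG read from the other strand is CTTCCG, so its letters can overlap a pyrimidine run. In 16 members the run began within 5 bases of the annotated start. How many of all genes have a run so close was not counted, so this number cannot be set against a background. The following 30-base windows, on the transcribed strand with the run in capitals, belong to genes described further on: 5 are among the highest in level or among the largest changes, and Rps6 is shown as the target of S6 kinase. Rps27 lies at chr3:90213631-90213660 on the minus strand, Rps9 at chr7:3704029-3704058 on the plus strand, Rps6 at chr4:86857350-86857379 on the minus strand, Rps18 at chr17:33955648-33955677 on the minus strand, Rpl38 at chr11:114668568-114668597 on the plus strand and Rps26 at chr10:128626489-128626518 on the minus strand.
Rps27: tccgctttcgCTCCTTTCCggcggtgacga
Rps9: gccttgtCTCTCTTTgtctcgggcctgagt
Rps6: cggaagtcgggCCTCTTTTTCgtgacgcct
Rps18: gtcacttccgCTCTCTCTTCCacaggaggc
Rpl38: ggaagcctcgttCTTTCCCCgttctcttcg
Rps26: gggcaagccgccggatCCTCTTTCgagtct
These 6 windows share the run and little else. Their genes moved in different directions in the comparisons: Rps27 was higher and Rps18 lower in PB than in BM.

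The 76 genes did not have equal mRNA levels. Over the 9 tissue libraries the mean FPKM ran from 4.76 for Rps20 to 547 for Rps9, a 115-fold range, and as a share of reads, which is not divided by gene length, the range was 110-fold. The 5 highest were Rps9 of the small subunit (371 to 861), Rps27, a zinc-binding protein of the small subunit (293 to 678), Rpl41, the smallest ribosomal protein (248 to 563), Rps14, a small-subunit protein lost in a form of myelodysplasia (205 to 419), and Rps16 (196 to 399). The 5 lowest were Rps20 (2.98 to 7.25), Rps15a (4.07 to 7.84), Rpl22 (5.43 to 10.3), Rpl10a (5.92 to 11.4) and Rpl21 (9.20 to 13.7).

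Part of the low values goes with the length used for the FPKM. The lengths implied by FPKM and reads had a median of 787.5 bases over the 76 genes, but 5136 for Rps15a, 3446 for Rps20, 3002 for Rpl21 and 2343 for Rpl22. Ordered by reads instead of FPKM, Rps15a stood 61st and Rpl21 59th of the 76, while Rps20 stayed 73rd and Rpl10a 75th. Across the 76 genes Spearman's rho with model length was -0.41 for FPKM and 0.051 for reads, given as a description since the genes share libraries.

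Ribosomal protein genes have many processed pseudogenes. In the GENCODE vM21 annotation 67 of the 76 shared at least 98% identity over at least 100 bases with 1 or more other genes, with a median of 3 and up to 17 for Rpl21. How the authors treated reads that map to several places is not given in the sources used here, so single levels of these 67 genes are uncertain. Rps9 and Rpl4 have no such copy.

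The order of the levels was much the same in the 3 tissues of the first experiment, with Spearman's rho of 0.93 between BM and PB, 0.91 between BM and lung and 0.99 between PB and lung. It was 0.80 for lung and 0.79 for PB between the tissue comparison and the WT mice of the Piezo1 experiment, and 0.32 between lung neutrophils and control whole lung. The leading pair changed places between tissues. In BM Rps9 read 398, 384 and 371 and lay above Rps27 at 325, 293 and 313. In PB the pair overlapped, at 709, 658 and 861 for Rps9 and 671, 641 and 678 for Rps27. In lung Rps27 was the higher, at 597, 547 and 544 against 538, 510 and 491.

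**Figure D1:**
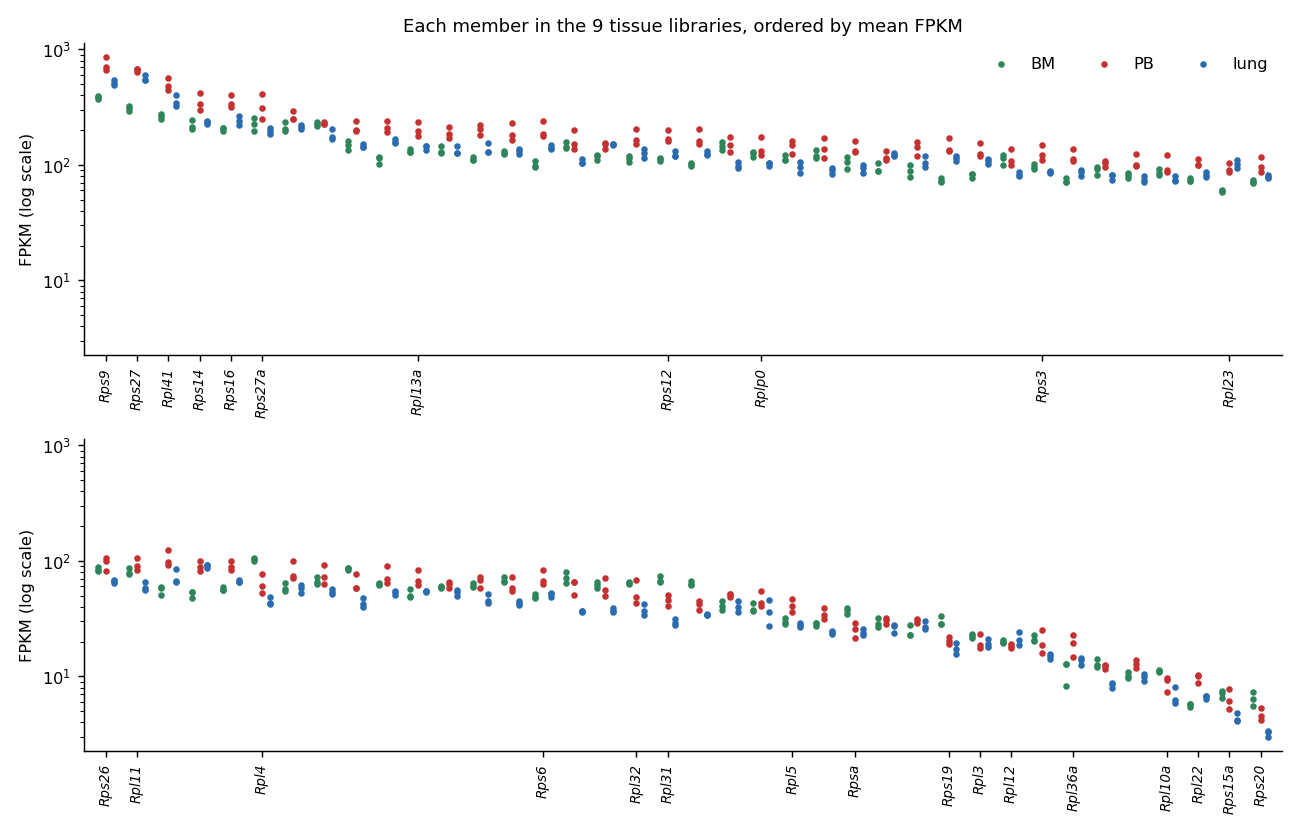
FPKM (log axis) of each of the 76 genes in the 9 tissue libraries, ordered by mean FPKM, with 1 point per library colored by tissue and names under some of the genes. Rps9 and Rps27 lead, Rps20 is lowest at 2.98 to 7.25, and the tissues lie close together for most genes compared with the 115-fold range between genes.

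Together the 76 genes held a small share of the neutrophil transcriptome. As a percentage of each library's summed FPKM they took 1.39 ± 0.04 (SD, n = 3) in BM, 2.31 ± 0.20 in PB and 1.73 ± 0.06 in lung. The PB libraries read 2.27, 2.15 and 2.53, the last being the library that stood apart, the lung libraries 1.80, 1.71 and 1.68, and the BM libraries 1.43, 1.39 and 1.36. No library overlapped with another tissue, and the mean share in PB was 1.66 times that in BM and 1.34 times that in lung. Without the PB library that stood apart these ratios were 1.58 and 1.28. Counted in reads, lung (0.556% to 0.602%) and BM (0.548% to 0.599%) overlapped, and PB stayed above both at 0.699% to 0.907%. Whole lung, a tissue of many cell types, gave 3.86 ± 0.19 of summed FPKM in controls.

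Markers of other myeloid cells followed the same order of tissues. The 5 genes of the list for monocytes and macrophages, all found and none at 0 throughout a tissue, summed to an FPKM of 59.6 to 63.7 in BM, 124 to 127 in lung and 156 to 171 in PB. The 4 eosinophil genes, all found, summed to 7.24 to 8.29 in BM, 12.8 to 14.3 in lung and 18.8 to 20.6 in PB, with Epx and Prg2 at 0 in every lung library. In the Piezo1 experiment PB of WT mice was also above lung, at 170 to 174 against 120 to 122 for the first list and 28.7 to 29.4 against 14.1 to 14.4 for the second, with C1qa at 0 in both. The part of these transcripts in the differences between tissues was not tested.

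In the Piezo1 experiment the share was 0.604 ± 0.009 (SD, n = 2) in PB and 0.415 ± 0.003 in lung of WT mice. It was 0.628 ± 0.043 in PB and 0.392 ± 0.014 in lung of Piezo1-cKO mice. Lung thus stood below PB in both genotypes, at 0.687 and 0.625 of the PB value. For the same tissue of WT mice the experiments differed in this share, at 1.73 in the tissue comparison against 0.415 for lung, and 2.31 against 0.604 for PB. Counted in reads, lung stood at 0.556% to 0.602% against 0.176% to 0.180%. The scaling of a library does not enter such a share. The cause of the difference was not tested, and shares are compared here within an experiment only. In bulk libraries fewer cells of a type and less RNA per cell cannot be told apart.

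**Figure D2:**
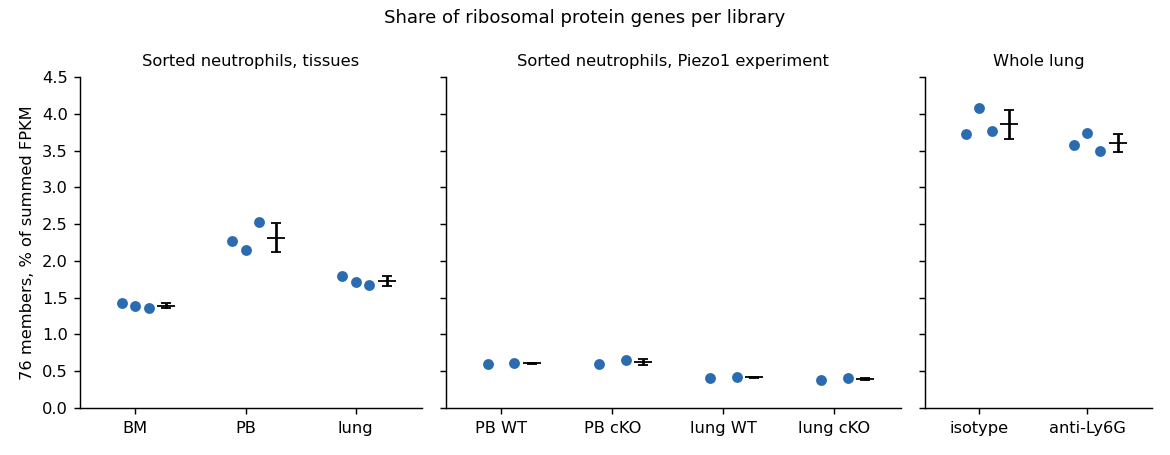
Share of each library's summed FPKM held by the 76 genes, in percent, with 1 panel per experiment, points for libraries and bars for the mean ± SD of the group. PB is highest and BM lowest in the tissue comparison, lung is below PB in the Piezo1 experiment, and the whole-lung groups overlap.

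For the tests, log2(FPKM + 1) was compared by limma-trend leaving out genes that did not reach an FPKM of 1 in as many libraries as the smaller group holds, and p values were adjusted by Benjamini-Hochberg over all genes tested. A gene was said to rise or fall where the adjusted p was below 0.05, and to be a differentially expressed gene (DEG) where the absolute log2 fold change was also above 1, or 0.5 in whole lung. Adding 1 to the FPKM understates the change of low genes. On the deposited scale the median gene itself shifted between tissues, by -0.54 between lung and PB and -0.70 between lung and BM. The counts of genes that rose or fell in a comparison are therefore also given after rescaling the FPKM by the median ratio, and the medians beside that of all genes. Values of single genes are on the deposited scale unless rescaling is named. In the Piezo1 experiment, with 2 libraries a group, each SE borrows most of its information from the variance of other genes.

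**Figure D3:**
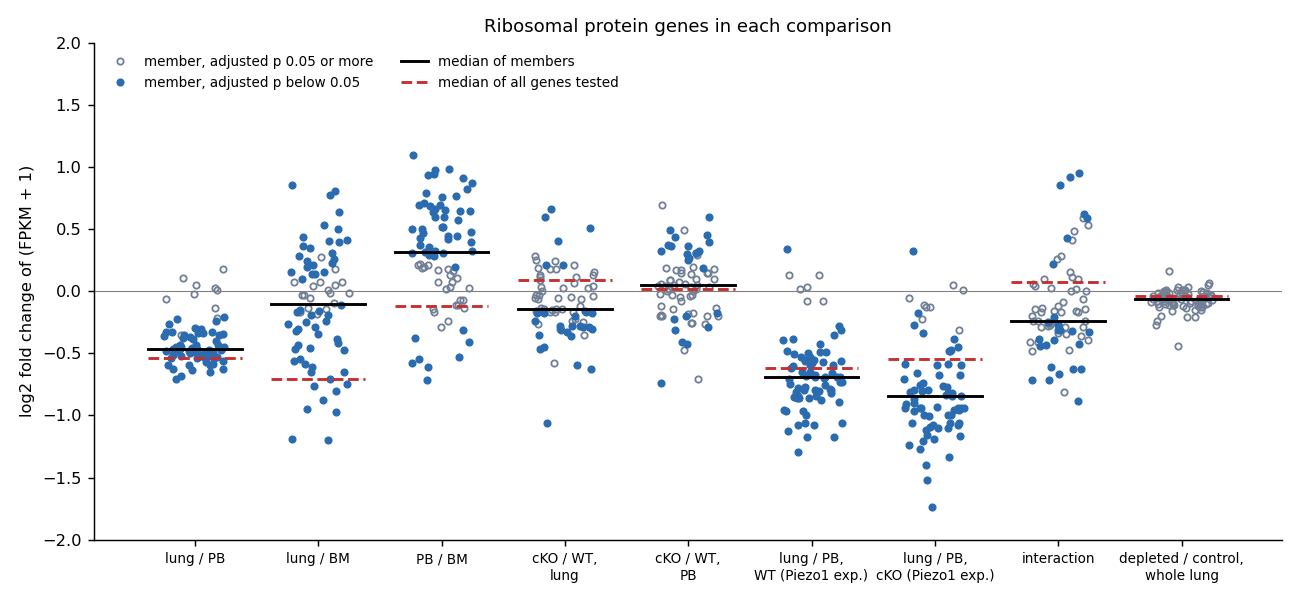
Log2 fold change of each gene (1 point per gene, filled where the adjusted p was below 0.05) in every comparison, with the median of the members as a solid line and that of all genes tested as a dashed line. The members lie above the median gene in lung and in PB against BM, near it in lung against PB of WT mice and between genotypes in PB, and around 0 in whole lung. They lie below it in lung against PB of Piezo1-cKO mice, between genotypes in lung and in the interaction.

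On the deposited scale more of the genes rose in PB against BM than in any other comparison. Of the 76, 44 (57.9%) rose and 8 (10.5%) fell, against 29.9% of all 8237 genes tested rising and 43.2% falling. The median log2 fold change was 0.32 for the 76 and -0.12 for all genes, and 63 of the 76 lay above the median gene. Rps27 alone was a DEG, where 22% of all genes were. After rescaling 49 rose, 5 fell and 6 were DEGs, all of them higher, and without the PB library that stood apart 44 rose, 16 fell and Rps27 was again the only DEG. After rescaling more of the genes rose in lung against BM, given further on, than here.

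Rps27 read 325, 293 and 313 in BM and 671, 641 and 678 in PB, a log2 fold change of 1.09 ± 0.06 (SE; adjusted p = 1.02e-06). Every PB library was above every BM library. Rpl17, which lines the exit tunnel, read 77.4, 70.4 and 72.0 in BM and 135, 131 and 170 in PB (log2 fold change 0.97 ± 0.10). Rpl41 rose by 0.91 ± 0.09, Rps14 by 0.64 ± 0.13, Rpl13a, which silences inflammatory mRNAs in macrophages once released from the ribosome, by 0.60 ± 0.10, Rps6 by 0.52 ± 0.10, Rpl5 by 0.44 ± 0.09 and Rps3, at the mRNA entry of the small subunit, by 0.38 ± 0.10.

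The genes that fell formed a minority with no shared subunit, 3 of the large and 5 of the small. Rpl4, which also lines the exit tunnel, read 106, 99.8 and 104 in BM and 60.3, 52.4 and 77.6 in PB, a log2 fold change of -0.71 ± 0.13 (adjusted p = 0.00117). Rps18, in the head of the small subunit, fell by 0.61 ± 0.08 and Rpl31 by 0.58 ± 0.09 on the log2 scale. Rpsa (-0.55 ± 0.10) and Rps19 (-0.53 ± 0.08), the gene most often mutated in Diamond-Blackfan anemia, fell as well. These 5 stayed lower after rescaling. Rplp0 of the ribosomal stalk (0.17, adjusted p = 0.247), Rpl3 near the peptidyl transferase center (-0.17, adjusted p = 0.159), Rpl11 (0.21, adjusted p = 0.0733) and Rpl32 (-0.29, adjusted p = 0.113) passed no threshold. Without the PB library that stood apart Rpl32 (-0.48, adjusted p = 2.42e-05) and Rpl3 (-0.28, adjusted p = 0.00102) fell, and Rpl4 was at -0.87 ± 0.06.

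The genes that rose were on the whole the abundant ones: across the 76, Spearman's rho of the log2 fold change with the mean FPKM was 0.58, and with the model length -0.19. These are descriptions, since the level comes from libraries that also give the change. Markers of younger cells were higher in BM. The 6 genes of the list for immature neutrophils and precursors, all found, summed to an FPKM of 33.7 to 35.4 in BM, 1.89 to 2.78 in PB and 2.65 to 3.59 in lung, where Ctsg was at 0 in every library. The part of these cells in the comparisons with BM was not tested.

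Lung against BM divided the genes. Of the 76, 24 (31.6%) rose and 34 (44.7%) fell, against 21.6% and 71% of all 8236 genes tested. The medians were -0.11 for the 76 and -0.70 for all genes, and 68 of the 76 lay above the median gene. There were 2 DEGs, Rpl31 and Rpl4, both lower, where 45.9% of all genes were DEGs. The counts depend on the scale: 32 of the 76 had a log2 fold change above 0 on the deposited scale, and 70 after rescaling. After rescaling 66 rose with 19 of them DEGs, and only Rpl31 and Rpl4 fell.

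Rpl31 read 73.3, 66.3 and 65.7 in BM and 31.1, 27.7 and 28.9 in lung, a log2 fold change of -1.20 ± 0.05 (adjusted p = 6.90e-09). Rpl4 read 48.9, 42.7 and 43.1 in lung against 99.8 to 106 in BM (-1.19 ± 0.05). Rps4x, the X-linked form of a small-subunit protein, was the next lowest at -0.97 ± 0.06, but at -0.14 (adjusted p = 0.0546) after rescaling. Lung values of these 3 lay far below every BM library.

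On the other side Rps27 rose by 0.85 ± 0.04, Rps2, at the entry of the mRNA channel, by 0.80 ± 0.05 and Rpl23, another binder of Mdm2, by 0.77 ± 0.05. Rpl23 read 60.1, 59.0 and 57.7 in BM and 109, 94.3 and 101 in lung. Of the other genes fixed for naming, Rpl41 rose by 0.43 ± 0.07 and Rpl13a by 0.10 ± 0.04, and these stayed higher after rescaling. Rpl32 (-0.76), Rps19 (-0.75), Rpsa (-0.61), Rpl11 (-0.41), Rplp0 (-0.29), Rpl3 (-0.19) and Rps3 (-0.16) fell on the deposited scale and were all above 0 after rescaling. Of these, Rpl32 (0.07, adjusted p = 0.311) and Rps19 (0.07, adjusted p = 0.489) then did not pass the limma-trend test. Rpl5, Rps6 and Rps14 differed by -0.10 to 0.07 with adjusted p of 0.0958 to 0.324.

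Lung was compared with PB in separate libraries of both experiments, and in both the genes were lower in lung on the deposited scale. In the tissue comparison 66 of the 76 (86.8%) fell and 0 rose by limma-trend, as 0 did at an unadjusted p below 0.05, while 69.6% of all 7577 genes tested fell and 16% rose. By limma voom on the recovered reads 64 fell and 0 rose. None was a DEG, where 27.2% of all genes were. The median was -0.47 for the 76, with an SD of 0.19 across them, and -0.54 for all genes, with an SD of 0.97. The genes moved together, and 62 of the 76 lay above the median gene. The median of the 76 was 0.07 above it, or 0.21 above it without the PB library that stood apart. After rescaling 25 rose and 0 fell with a median of 0.16, so the direction flips with the scale. Without the PB library that stood apart 65 fell and 2 rose (median -0.33), and with rescaling as well, an alternative chosen after seeing the data, 63 rose and 0 fell (median 0.29).

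Rps27a, made as a fusion with ubiquitin, read 311, 252 and 412 in PB and 211, 187 and 197 in lung, a log2 fold change of -0.68 ± 0.16 (adjusted p = 0.00365). Every lung library was below every PB library. After rescaling the difference was -0.04, with an adjusted p of 0.821, and without the PB library that stood apart it was -0.50 ± 0.08 on the deposited scale. At the other end Rpl12, at the base of the stalk (0.18 ± 0.09, adjusted p = 0.0877), Rpl23 (0.11 ± 0.08, adjusted p = 0.255) and Rpl10, which joins the large subunit last (0.05 ± 0.07, adjusted p = 0.540), overlapped between the tissues. After rescaling they rose, by 0.69 to 0.79. Without the PB library that stood apart Rpl23 (0.18, adjusted p = 0.0137) and Rpl10 (0.12, adjusted p = 0.0101) rose on the deposited scale as well. Rpl12 read 18.4, 17.7 and 19.1 in PB and 24.0, 18.8 and 20.5 in lung.

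Among the genes fixed for naming, Rpl11 (-0.63 ± 0.10), Rps14 (-0.57), Rpl5 (-0.54), Rps3 (-0.54), Rpl13a (-0.50), Rpl41 (-0.48), Rpl32 (-0.47), Rps6 (-0.47) and Rplp0 (-0.46) fell on the deposited scale. All 9 were above 0 after rescaling, with or without the PB library that stood apart. With all libraries kept, none of the 9 passed the limma-trend test after rescaling (adjusted p = 0.200 to 0.955). Rps19 (-0.22, adjusted p = 0.0514), Rpsa (-0.06) and Rpl3 (-0.02) did not pass the test.

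In WT mice of the Piezo1 experiment 74 of the genes were tested. Rps15a and Rps20, at an FPKM of 0.312 to 1.10 in these libraries, were below the filter. Of the 74, 67 (90.5%) fell and 1 rose, against 72.5% and 16.5% of all 7143 genes tested, and 8 were DEGs, all lower, where 34% of all genes were. The medians were -0.69 for the genes and -0.62 for all. After rescaling 20 rose and 13 fell, with a median of 0.01 and 1 DEG.

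Rpl35a was the lowest, at 27.5 and 27.0 in PB and 9.09 and 12.1 in lung, a log2 fold change of -1.29 ± 0.11 (adjusted p = 2.42e-05). Rps26, at the mRNA exit of the small subunit, read 52.5 and 60.7 in PB and 23.7 and 25.2 in lung (-1.17 ± 0.07). Both also fell after rescaling, by 0.59 and 0.45. Rpl23 was the only gene to rise (0.34 ± 0.06, adjusted p = 0.00125), from 25.1 and 24.8 in PB to 30.2 and 33.7 in lung. Rpl5 (0.13, adjusted p = 0.235) passed no threshold. The other genes fixed for naming fell, from Rplp0 (-0.35 ± 0.04) to Rps19 (-1.08 ± 0.07). After rescaling Rplp0, Rps14 and Rpl41 rose, while Rps19 (-0.38) and Rpl13a (-0.25) still fell. Rpl3 (-0.21), Rpl32 (-0.19), Rpsa (-0.02), Rpl11 (-0.005), Rps3 (0.03) and Rps6 (0.03) then passed no threshold.

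Side by side, 67 of the 74 genes were negative in both experiments on the deposited scale. Set against the median gene of each experiment, 24 were above it in both, 9 below it in both and 41 on opposite sides. Spearman's rho of the changes was 0.24 over the 74 genes. Rpl23 was 0.65 above the median gene in the tissue comparison and 0.96 above it in the Piezo1 experiment.

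**Figure D4:**
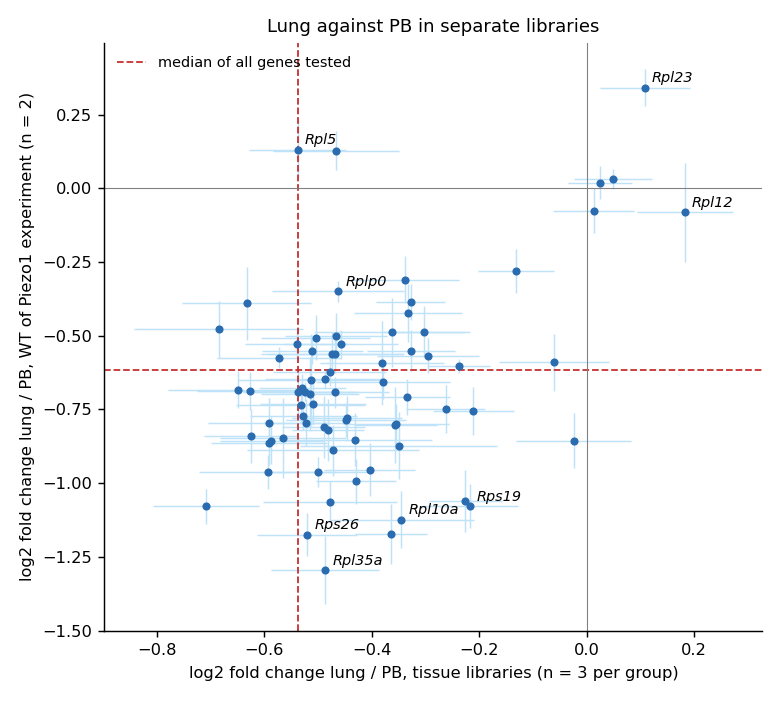
Log2 fold change of lung over PB for each of 74 genes in the tissue comparison (x axis) and in WT mice of the Piezo1 experiment (y axis), with bars for the SE and dashed lines for the median of all genes tested. Most points lie in the lower left, Rpl23 is high on both axes, and the cloud has little slope (rho 0.24).

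In Piezo1-cKO mice the lung to PB difference of the genes was larger than the shift of the median gene. Of 74 genes, 65 (87.8%) fell and 1 rose, against 65.9% and 18.6% of all 7163 genes tested, and 20 were DEGs, all lower, where 30.9% of all genes were. The medians were -0.84 and -0.54. After rescaling 35 fell and 9 rose, with a median of -0.26 and 1 DEG, Rpl36a.

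Rpl36a, a large-subunit protein near the exit site of tRNA, was the lowest at -1.74 ± 0.16 (adjusted p = 7.55e-05). It read 8.71 and 12.1 in PB and 2.08 and 2.72 in lung. Rps26 fell by 1.52 ± 0.10 and Rpl8, close to the peptidyl transferase center, by 1.40 ± 0.07 on the log2 scale. Rpsa rose (0.33 ± 0.10, adjusted p = 0.0195), from 3.52 and 3.60 in PB to 4.34 and 5.12 in lung. Rps13 (0.05) and Rpl23 (0.01) were next and did not pass the test.

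Between genotypes in lung, the genes fell on balance while the median gene rose slightly. Of 73 genes tested, 23 (31.5%) fell and 6 (8.22%) rose, against 15.8% of all 6434 genes falling and 35% rising. The medians were -0.14 for the genes and 0.09 for all, and 55 of the 73 were below the median gene. Rpl36a was the only DEG, where 0.995% of all genes were. After rescaling 35 fell and 3 rose, so this direction held. By limma voom 17 fell and 5 rose, and without the 2nd WT lung library 14 fell and 7 rose. Rps24 joined Rps15a and Rps20 below the filter.

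Rpl36a read 6.32 and 5.85 in WT lung and 2.08 and 2.72 in Piezo1-cKO lung, a log2 fold change of -1.06 ± 0.11 (adjusted p = 0.000483). These values rest on 46 and 43 reads in WT and 15 and 19 in Piezo1-cKO, and 2 other genes share at least 98% of its sequence over at least 100 bases. Without the 1st Piezo1-cKO lung library it was no longer a DEG, nor was any other of the genes. Rps12, a small-subunit protein at 5.18 and 4.62 in WT and 3.41 and 2.30 in Piezo1-cKO, fell by 0.63 ± 0.14 on the log2 scale (17 to 40 reads). Rps27 fell by 0.60 ± 0.10, from 431 and 427 to 253 and 317, on 1290 to 2220 reads.

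Rpsa rose from 2.42 and 2.82 in WT lung to 4.34 and 5.12 in Piezo1-cKO lung (0.66 ± 0.11, adjusted p = 0.00253). Rpl10a rose by 0.60 ± 0.10, on 14 to 31 reads, and Rps25, which helps internal ribosome entry, by 0.51 ± 0.04, from a mean of 43.0 to 61.6. Rpl11 (0.21 ± 0.07) rose, and Rps14 (-0.16 ± 0.04) and Rpl41 (-0.16 ± 0.04) fell. Over the 11 settings tried the adjusted p stayed below 0.05 in 4 for Rpl11, 6 for Rps14 and 7 for Rpl41. By voom it was 0.197, 0.0633 and 0.0446, and after rescaling Rpl11 was at 0.11 with an adjusted p of 0.212. The remaining genes fixed for naming differed by -0.26 to 0.15 and passed no threshold. The markers of monocytes and macrophages summed to 120 to 122 in WT lung and 149 in both Piezo1-cKO lung libraries, and those of eosinophils to 14.1 to 14.4 and 16.9 to 18.9. Their part in the genotype values of lung was not tested.

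In PB the genes moved in both directions between genotypes. Of 74 genes, 16 (21.6%) rose and 8 (10.8%) fell, against 26.5% and 23.2% of all 7256 genes tested. The medians were 0.05 and 0.02, and no gene of the 74 was a DEG by limma-trend, where 3.65% of all genes were. By the adjusted p, 16 rose and 9 fell after rescaling. Single libraries changed these counts: 30 rose and 11 fell without the 1st Piezo1-cKO PB library, 17 and 17 without the 2nd, 13 and 3 without the 1st WT PB library, and 10 and 6 without the 2nd.

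Rpl27 of the large subunit fell the most, from 26.5 and 30.3 in WT to 17.1 and 16.0 in Piezo1-cKO (-0.74 ± 0.08, adjusted p = 0.000735). Rps28 (-0.71 ± 0.29, adjusted p = 0.0971) and Rps4x (-0.47 ± 0.18, adjusted p = 0.0701) did not pass the test. Their Piezo1-cKO libraries lay far apart, at 11.3 and 22.1 for Rps28 and 10.3 and 6.34 for Rps4x. Rpl35 was at 0.70 ± 0.23 (adjusted p = 0.0560). Rpl6 rose by 0.59 ± 0.13 and Rpl8 by 0.50 ± 0.06, Rpl8 from 30.1 and 31.9 to 43.8 and 44.4. Rpl5 (0.45 ± 0.08) and Rpl11 (0.37 ± 0.08), the partners in the particle that carries an rRNA into the large subunit, rose together with Rplp0 (0.25 ± 0.05), and Rpl13a fell by 0.18 ± 0.06.

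Markers of red cells moved with genotype in these PB libraries. The 4 genes of the erythroid list, all found, summed in PB to an FPKM of 564 to 572 for Piezo1-cKO mice and 11.0 to 11.7 for WT mice. In lung the sum was 0.103 to 1.48 for Piezo1-cKO and 1.99 to 2.35 for WT. Alas2 was at 0 in PB of WT mice. The part of these transcripts in the Piezo1-cKO values of PB, and in the comparisons that use them, was not tested.

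Over the 73 genes tested in both tissues the genotype effects showed no shared order, with Spearman's rho of -0.007. There were 18 genes negative in both tissues and 42 of opposite sign. The tissues share no libraries, and the difference was tested directly as the effect of genotype in lung minus that in PB. Of 74 genes this interaction was below 0 in 20 (27.0%) and above 0 in 7 (9.46%) at an adjusted p below 0.05, against 18.5% and 29.7% of all 7560 genes tested. The medians were -0.24 for the genes and 0.08 for all. After rescaling the counts were 32 and 5, and leaving out single libraries gave 15 to 40 in all: 15 without the 1st WT PB library, 16 without the 2nd WT lung library and 40 without the 1st Piezo1-cKO PB library.

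Rpl36a had the lowest interaction, -0.88 ± 0.21 (adjusted p = 0.00893), followed by Rpl12, which did not pass the test (-0.81 ± 0.38, adjusted p = 0.108, on 12 to 44 reads), and Rpl38, a protein needed to translate Hox mRNAs (-0.72 ± 0.17, adjusted p = 0.00953). In PB Rpl38 read 14.8 and 13.6 for WT mice and 17.2 and 22.1 for Piezo1-cKO mice, but in lung 9.09 and 9.63 for WT and 8.32 and 6.76 for Piezo1-cKO. Rpl5 went from 4.40 and 4.65 to 6.38 and 6.72 in PB and from 4.62 and 5.50 to 3.94 and 4.13 in lung (-0.72 ± 0.13, adjusted p = 0.00209). For both genes the Piezo1-cKO libraries lay above WT in PB and below WT in lung.

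Rps28 had the highest interaction (0.95 ± 0.34, adjusted p = 0.0487), then Rpsa (0.92 ± 0.14, adjusted p = 0.00103) and Rpl10a (0.85 ± 0.13, adjusted p = 0.000932). Rpsa did not pass the test in PB (-0.25 ± 0.09, adjusted p = 0.0531) and rose in lung. Rpl10a went from 3.21 and 3.38 to 2.74 and 2.46 in PB and from 1.07 and 0.876 to 1.98 and 1.98 in lung, so its Piezo1-cKO libraries lay below WT in PB and above WT in lung. Rps6 (-0.32), Rplp0 (-0.31), Rps14 (-0.26) and Rpl13a (0.22) also passed the test.

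**Figure D5:**
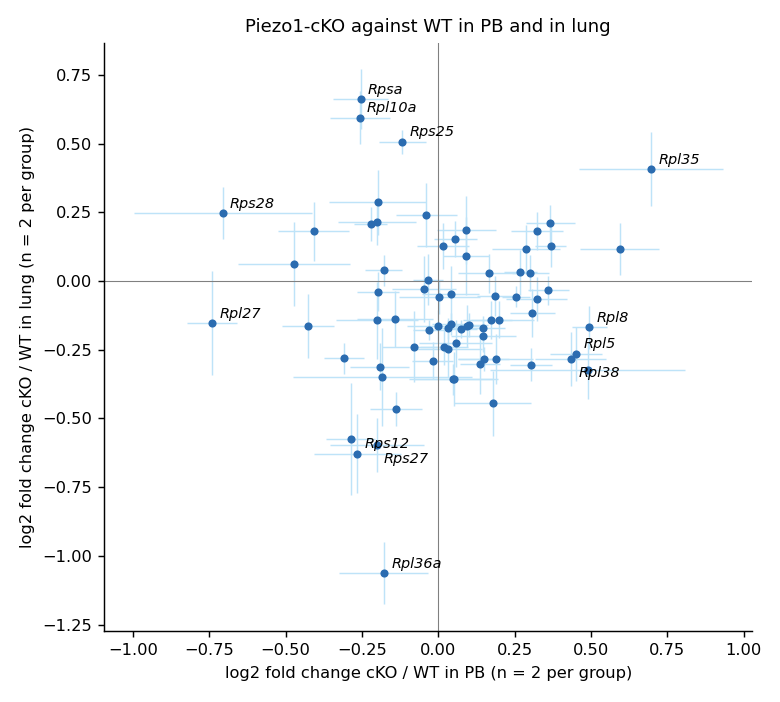
Log2 fold change of Piezo1-cKO over WT for each of 73 genes in PB (x axis) and lung (y axis), with bars for the SE. Rpl36a lies far below the rest, Rpsa and Rpl10a at the upper left, Rpl5 and Rpl38 at the lower right, and the cloud has no slope (rho -0.007).

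In whole lung the genes were not detectably altered by depletion. The 6 markers of mature neutrophils, all found, summed to an FPKM of 165 to 209 in controls and 29.4 to 87.7 after depletion. In sorted lung neutrophils of the tissue comparison they summed to 41550 to 45548. Whole lung is a tissue of many cell types, so this comparison does not show the levels of the genes in neutrophils. By limma-trend 0 of the 76 passed the adjusted p in either direction, 0 rose and 1 fell at an unadjusted p below 0.05, and of all 13990 genes 0% rose, 0.00715% fell and 0.00715% were DEGs. The medians were -0.06 for the 76, with an SD of 0.08, and -0.04 for all genes. The share of summed FPKM was 3.60 ± 0.12 (SD, n = 3) after depletion and 3.86 ± 0.19 in controls, and the groups overlapped. Rpl41 was the lowest, at 125, 216 and 182 in controls and 162, 119 and 101 after depletion (-0.44 ± 0.24, adjusted p = 0.543). Rpl29 (-0.24 ± 0.21), Rps10 (0.16 ± 0.22), Rpl14 (0.07 ± 0.06) and Rpl26 (0.05 ± 0.17) had adjusted p of 0.725 to 0.944. The 12 genes fixed for naming lay between -0.44 and -0.02.

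The genes around the 76 were read in the same fits. Their falls from PB to lung are on the deposited scale: relative to the median gene, the medians of the 4 lists given here lay 0.06 to 0.24 above it in the tissue comparison, and 0.06 to 0.34 above it without the PB library that stood apart. Of all genes 69.6% fell and 16% rose there, as given above. Of the 12 ribosomal protein genes outside the pattern, 9 were tested. Fau, which encodes a ubiquitin-like fusion with a small-subunit protein, rose between BM and PB as Rps27 did (1.18 ± 0.12, adjusted p = 3.55e-05), from a mean FPKM of 327 to 749. From PB to lung 7 of the 9 fell and 0 rose, as 0 did at an unadjusted p below 0.05, with a median of -0.48. In WT mice of the Piezo1 experiment all 9 fell, where 72.5% of all genes fell. The median of the 9 lay 0.01 above the median gene in that comparison. Rpl7l1, a paralog of Rpl7, was a DEG in lung against PB (-1.04 ± 0.11). Of these relatives Rpl22l1 rose (1.08 ± 0.10) and Rpl36al fell (-1.53 ± 0.12) between BM and lung.

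Of 36 translation factors, 33 were tested in lung against PB, where 27 (81.8%) fell and 5 (15.2%) rose with a median of -0.45, or -0.31 without the PB library that stood apart. Eif4b, which assists the helicase that unwinds mRNA leaders, fell by 1.57 ± 0.11 on the log2 scale there and by 1.66 ± 0.09 in WT mice of the Piezo1 experiment. Eif4a1, the helicase itself, rose by 1.35 ± 0.03 from BM to lung and by 1.47 ± 0.06 from PB to lung in the Piezo1 experiment. The subunits Eif3a and Eif3l of the initiation factor that binds the small subunit fell in both lung to PB comparisons of WT mice, by 1.00 to 1.06. Between genotypes 17 of 36 rose and 3 fell in PB, with a median of 0.15, where 26.5% of all genes rose and 23.2% fell. In lung 10 of 34 rose and 5 fell, close to the 35% and 15.8% of all genes.

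Ribosome biogenesis factors spread about as widely as all genes. Of 27 tested in lung against PB, 10 (37.0%) rose and 13 (48.1%) fell, and the SD across them was 0.96, against 0.97 across all genes and 0.19 across the 76. Ltv1, which exports and matures the small subunit, rose by 2.54 ± 0.10 from PB to lung and by 2.83 ± 0.11 in WT mice of the Piezo1 experiment. Nop58, a core protein of the box C/D particles that methylate rRNA, rose by 1.71 ± 0.12 and 1.35 ± 0.10. Nop2, an rRNA methyltransferase, fell in both, by 1.30 ± 0.10 and 1.45 ± 0.09 on the log2 scale. Bysl, another small-subunit factor, fell in PB of Piezo1-cKO mice (-1.35 ± 0.11).

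Of 21 regulators of ribosomal protein synthesis, 16 were tested in lung against PB, where 3 (18.8%) rose and 10 (62.5%) fell with a median of -0.47, shares near those of all genes. Eif4ebp1, the mTOR target that holds back cap-dependent translation, fell by 1.15 ± 0.07 on the log2 scale and by 1.41 ± 0.02 in WT mice of the Piezo1 experiment. Max, the partner of Myc, fell by 1.11 ± 0.05 and 1.55 ± 0.06. Mxd1, which competes with Myc for Max, rose from BM to lung (1.41 ± 0.02). Mlst8, a subunit of both mTOR complexes, fell by 4.86 ± 0.06 from BM to lung and by 4.31 ± 0.07 from BM to PB. Its mean FPKM was 32.6 in BM, and 0.161 in lung and 0.696 in PB, both below the filter of 1.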

How the data were processed

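RNA-Seq of 23 libraries was analysed, 17 of sorted neutrophils and 6 of whole lung. The deposited values are FPKM, computed by the authors from paired-end reads of 150 bases. The submitters' processing notes name fastp, HISAT2, HTSeq and the mm10 build, without versions. The labels describe polyA selection with a SMARTER kit and the paper another kit, so the kit is uncertain. The authors' columns of group means, fold changes, p values and q values, made with DESeq2, were not used, and 0 columns of per-sample values were left out.

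Whole reads were recovered from the FPKM of sorted neutrophils by dividing out each gene's step (100.0% of genes, within 0.02 of a whole number). Where a gene has 0 reads, as many as 3 remain possible; 3 reads are 0.155 to 0.182 per 1000000 in tissue libraries and 0.200 to 0.312 in those of the Piezo1 experiment, and this limit covers counting error only. The depth of whole lung could not be recovered and is unknown.

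Groups follow the deposited labels. Each comparison was fitted on the libraries of its groups by limma-trend (limma 3.58.1, R 4.3.3) on log2(FPKM + 1) over all genes with an FPKM of 1 or more in at least as many libraries as the smaller group holds, adjusted by Benjamini-Hochberg. The interaction was called on the adjusted p alone. A count model had been planned for the case of raw counts, but the tables hold FPKM. The fit was tested on simulated data. Alternatives were no filter, a pseudocount of 0.1, rescaling of the FPKM by median ratios, a replicate block, all libraries in 1 fit, limma voom on the recovered reads, the adjusted p alone, the addition of 3 ribosomal protein genes with other symbols, each library left out and, added after seeing the data, rescaling without the 3rd PB library.

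The genes followed, the lists and the tests were chosen with earlier results of these data known. Named members were 12 fixed for what is known of them and, in each comparison, the 3 highest and 3 lowest log2 fold changes, and in levels the 5 highest and 5 lowest; some genes that the rule takes are not reported here. Rps9, Rps18, Rps26 and Rps24 were also named outside the comparisons that the rule covers, after their values were seen. Copies were searched with blastn 2.17.0 in GENCODE vM21 transcripts, and start-site windows came from RefSeq (GRCm38.p6), with none for 20 of the 76 genes.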

Additional observations from a re-analysis of the deposited data

Results flagged for a closer look

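The effect of genotype differed between lung and PB, by the interaction test, for 10 of the genes named. It was lower in lung for Rpl36a (-0.88), Rpl38 (-0.72), Rpl5 (-0.72), Rps6 (-0.32), Rplp0 (-0.31) and Rps14 (-0.26), and higher in lung for Rpl13a (0.22), Rpl10a (0.85), Rpsa (0.92) and Rps28 (0.95). These are differences of log2 fold changes between the effect in lung and that in PB, from limma-trend over the 8 libraries of the Piezo1 experiment. The same PB libraries of Piezo1-cKO mice held the erythroid transcripts given above, whose part was not tested. Over the 14 settings tried, the adjusted p was below 0.05 in 3 for Rpl13a, 5 for Rps28, and 8 each for Rps14 and Rps6. No group held enough libraries for a test of single outlying values.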

How the results depend on the processing

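Of the counts of DEGs among the ribosomal protein genes and their medians relative to the median gene, 97 counts and 95 medians stayed within 1.5 times or within the spread between replicates, and 21 counts and 15 medians did not. For the tissue comparison, counts moved to 66 (lung against PB), 58 (lung against BM) and 52 (PB against BM) by the adjusted p alone, to 19 (lung against BM) and 6 (PB against BM) after rescaling, and to 2 (PB against BM) with 3 ribosomal protein genes of other symbols added. In the Piezo1 experiment they moved by the adjusted p alone to 29 (Piezo1-cKO against WT, lung), 24 (PB), 68 (lung against PB, WT) and 66 (Piezo1-cKO), after rescaling to 1 in WT and 1 in Piezo1-cKO for lung against PB, and by voom to 2 (genotype in lung). The relative median of lung against PB in WT mice of the Piezo1 experiment changed sign, from just below 0 to 0.013 with a pseudocount of 0.1, 0.023 after rescaling and 0.026 by voom. The relative median of lung against BM moved to 0.75 (pseudocount of 0.1), 0.74 (rescaled), 0.77 (voom) and 0.049 (no filter). Without the filter, which adds many genes near 0 to the comparison, it was -0.38 for lung against PB, -0.58 for WT and -0.75 for Piezo1-cKO mice. Rescaled and without the 3rd PB library, chosen after seeing the data, it was 0.30 for lung against PB. Apart from this and the filter, the cause of these moves was not tested.

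Leaving out 1 library at a time, with a lone library assumed to vary like the other group, gave 1 to 5 DEGs for PB against BM (5 without the 2nd PB library, 3 without the 1st PB or 1st BM library), 0 to 1 for genotype in lung (0 without the 1st Piezo1-cKO library), 0 to 2 for genotype in PB (2 without the 2nd Piezo1-cKO library), 13 to 29 for lung against PB in Piezo1-cKO mice (13 without the 2nd PB library) and 15 to 40 for the interaction. Relative medians for lung against PB ran from -0.014 (without the 2nd PB library) to 0.21 in the tissue comparison, from -0.19 to -0.026 in WT and from -0.46 to -0.23 in Piezo1-cKO mice of the Piezo1 experiment, and from -0.0081 (without the 2nd Piezo1-cKO library) to 0.13 for genotype in PB. Whether the replicate numbers pair the libraries cannot be decided with 2 or 3 libraries a group. Deviations of same-numbered libraries correlated at -0.10 to 0.12. In the Piezo1 experiment PB and lung of the same genotype gave 0.062 in WT and 0.12 in Piezo1-cKO mice, and pairs across genotypes -0.035 to 0.014. With the replicate block the interaction gave 31 genes, 7 above and 24 below 0, with no other count of DEGs altered. Depth limits Piezo1 and the lowest members, such as Rps20 and Rps15a, in the Piezo1 experiment.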
